A study of Mus musculus with 15 samples.

Results

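Genes that hold back ERK signalling, and transcription factors of the ETS family that act at its end, were followed in mouse C2C12 myotubes treated with Jakyak-gamcho-tang (JGT), an extract of the roots of peony and licorice made with hot water. The 10 genes were chosen by symbol from the count table: Spry1, Spry2, Spry4, Spred1, Dusp4, Dusp6, Etv4, Etv5, Erf and Errfi1. They are 10 of 42807 symbols listed, and all 10 passed the filter on low counts that left 14461 genes for testing. The choice used measured values, because Spry1, Erf and Errfi1 were picked for their changes at the lower JGT doses. Their values at 20 and 100 µg/mL against vehicle are therefore given as a description, with no test, and so are those of the other 7 genes in the same comparisons.

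C2C12 is a myoblast line, purchased from a cell bank, whose cells fuse into myotubes when serum is lowered. All cells were differentiated for 6 days and then kept for 24 h without treatment, with vehicle (0.1% DMSO), or with JGT at 20, 100 or 500 µg/mL, in 3 libraries per group and 15 in all. The top dose had been set where a viability curve reached 80%. From a stock in 2% DMSO, the doses by themselves bring 0.004%, 0.02% and 0.1% DMSO. Whether DMSO was made equal across the JGT groups is not recorded here, so dose and DMSO may differ together. The titles put all libraries in 1 batch, but the sample codes of the 9 JGT libraries belong to 1 numbering and those of the 6 controls to another, so for JGT against controls the treatment and the numbering cannot be told apart, whereas comparisons between doses stay within 1 numbering.

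Growth factors bind receptor tyrosine kinases, which switch on RAS and then the kinases RAF, MEK and ERK. ERK phosphorylates ETS factors and other nuclear proteins, and among the genes it induces are its own inhibitors, the Sprouty and Spred proteins and the dual-specificity phosphatases. In myoblasts this pathway is known to carry the signal of fibroblast growth factors that keeps cells dividing and holds back differentiation, and Sprouty1 is known for its part in the quiescence of muscle stem cells.

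Total counts ran from 26012844 to 36854199 per library. Myotube markers were abundant, with 7 genes summing to between 12144 and 13885 CPM (counts scaled to a common library size with TMM factors) in every library. The sum was lowest in JGT 500, at 12144 to 12333 CPM, against 12423 to 12541 CPM in non-treated and 12847 to 13587 CPM in vehicle. Of these 7 genes, 2 were called higher and 3 lower in JGT 500 than in vehicle. On the first principal component, JGT 500 replicates 1, 2 and 3 had scores of 37.2, 17.5 and 39.4, and no other library exceeded −0.984. JGT 500 replicate 2, at 17.5, stood apart from replicates 1 and 3, and calls that were lost or gained without it are given both ways. Markers of proliferating cells (4 genes) summed to 315 to 320.1 CPM in non-treated, 253 to 259 CPM in vehicle, 226 to 238 CPM at 20 µg/mL, 205 to 209 CPM at 100 µg/mL and 100.02 to 105 CPM at 500 µg/mL. All 4 were called lower in JGT 500 against either control and in JGT 100 against vehicle, and 3 of 4 in vehicle against non-treated. Of 6 markers of undifferentiated or reserve myoblasts, 4 were called lower in JGT 500 than in vehicle, with a median log2 of −0.405 over the 6. Their sum, most of it from Myod1, which was not called, ran from 255 to 273 CPM in JGT 500 against 299.9 to 310.2 CPM in vehicle. The part of these cells in the results below was not tested, and in bulk RNA fewer cells of a type cannot be told apart from less RNA per cell. Of the adipocyte markers, Lpl and Cebpa were higher at 500 µg/mL. The 4-gene sums were 98.2 to 109 CPM in JGT 500 against 43.9 to 45.5 CPM in vehicle. Adipoq and Plin1 were at 0 in all non-treated, JGT 100 and JGT 500 libraries, and 1 of this pair in all vehicle and JGT 20 libraries. Endothelial and blood cell markers (3 genes) summed to at most 0.545 CPM in any library.

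The promoters of Spry1, Erf and Errfi1 are shown because these genes were picked for their differences from vehicle at the lower doses. Each is the 250 bases before an annotated start (RefSeq, build GRCm38.p6), written 5′ to 3′ on the strand of the gene. Capitals mark a match to 1 of 4 motifs searched on both strands, the ETS core with flank CCGGAAGT, the AP-1 site TGANTCA, the cyclic AMP response element TGACGTCA and the antioxidant response element TGACNNNGC.
Spry1, chr3:37639697-37639946 (+): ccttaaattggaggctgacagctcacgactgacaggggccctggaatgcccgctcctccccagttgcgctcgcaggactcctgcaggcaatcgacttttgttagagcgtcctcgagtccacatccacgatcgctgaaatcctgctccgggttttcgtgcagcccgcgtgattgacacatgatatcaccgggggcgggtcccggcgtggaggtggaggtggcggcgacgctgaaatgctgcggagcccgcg
Erf, chr7:25250759-25251008 (−): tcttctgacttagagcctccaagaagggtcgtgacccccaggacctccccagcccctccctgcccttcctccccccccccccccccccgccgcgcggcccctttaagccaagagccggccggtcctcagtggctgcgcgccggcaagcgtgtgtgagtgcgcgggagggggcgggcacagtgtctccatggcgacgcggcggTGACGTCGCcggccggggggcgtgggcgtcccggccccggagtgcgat
Errfi1, chr4:150854820-150855069 (+): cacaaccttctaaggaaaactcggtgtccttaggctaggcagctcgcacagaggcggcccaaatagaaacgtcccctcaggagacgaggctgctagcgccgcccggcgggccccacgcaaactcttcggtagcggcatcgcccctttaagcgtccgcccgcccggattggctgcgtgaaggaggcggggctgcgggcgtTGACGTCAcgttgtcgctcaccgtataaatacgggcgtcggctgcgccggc

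The table of promoters held 9 starts for 7 of the 10 genes, Dusp6, Erf, Errfi1, Etv5, Spred1, Spry1 and Spry2, with a pair each for Errfi1 and Etv5. The full cyclic AMP response element lay 51 bases before the downstream start of Errfi1, and 1.55% of 32851 promoter windows of this length held it. The antioxidant response element letters lay 48 bases before the start of Erf, and 10.2% of windows held them. These were the only matches in the 9 windows. For Errfi1 only the window of the downstream start is printed above. Its upstream window, chr4:150853546-150853795, held no match, and which start the cells use was not determined. CCGGAAGT was held by 2.88% of all windows and TGANTCA by 6.75%. In GENCODE M21 Spry1 overlaps Gm42922 on the opposite strand. Errfi1 overlaps 1700045H11Rik and Spry4 overlaps Gm27369 and Gm27804, also on the opposite strand, and these 3 had no counts in any library. The kit was directional, but no source used here states whether counting used strand, and without it reads of Spry1 and Gm42922 cannot be told apart. Spry1 alone of the 10 genes had expected counts that were not whole, such as 592.09, 587.57 and 514.81 in the non-treated libraries. The reason was not tested.

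At 500 µg/mL the feedback inhibitors and ETS factors did not move as a block. Against non-treated myotubes, Spry1 and Spry4 rose, while Erf, Etv4, Etv5 and Dusp4 fell. Spry2, Spred1, Dusp6 and Errfi1 were not called. Called means an adjusted p below 0.05 in edgeR's quasi-likelihood test over all 14461 genes. That is 6 of 10 genes called, where 31.8% of all tested genes were, 16.3% higher and 15.5% lower. The 6 include Spry1 and Erf, which were picked for changes from vehicle at the lower doses. Non-treated libraries were not in those comparisons with vehicle, but earlier results of these data were known when the genes were chosen. The median log2 fold change of the 10 was −0.05, beside 0.01 for all tested genes.

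**Figure D1:**
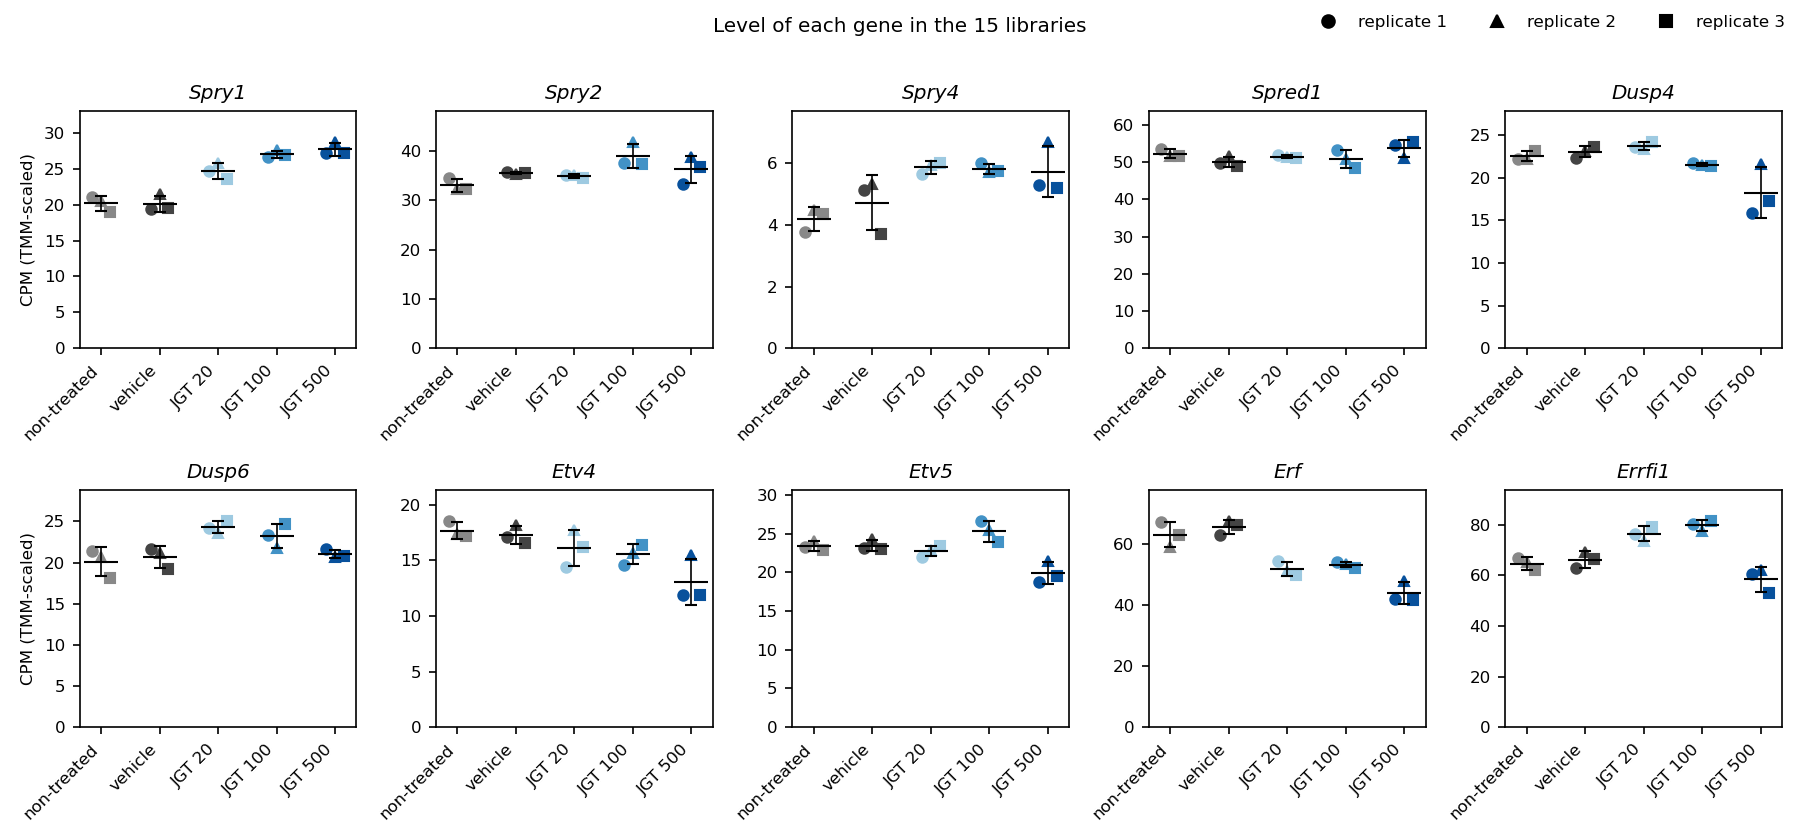
Level of each of the 10 genes in every library, in CPM scaled by TMM factors, by group from non-treated to JGT 500 µg/mL. Points are libraries, shaped by replicate number, and black bars are the mean and SD of 3 libraries. Spry1 lay between 27.2 and 28.7 CPM in JGT 500, above all 6 control libraries, and Erf between 41.9 and 48.1 CPM, below all of them.

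Spry1, an inhibitor of receptor tyrosine kinase signalling upstream of ERK, lies on chromosome 3 at 37639947 to 37644598 (GRCm38, + strand). It stood at 20.99, 20.6 and 19.0 CPM in non-treated and at 19.3, 21.4 and 19.5 CPM in vehicle libraries. It then stood at 24.7, 25.7 and 23.6 CPM at 20 µg/mL, at 26.6, 27.6 and 26.9 CPM at 100 µg/mL and at 27.2, 28.7 and 27.2 CPM at 500 µg/mL. Both control groups overlapped, the 20 µg/mL libraries lay above them and below those at 100 µg/mL, and the groups at 100 and 500 µg/mL overlapped. At 500 µg/mL Spry1 rose 1.37-fold over non-treated (log2 0.46 ± 0.055, SE, adjusted p = 1.8e-06 by edgeR), with all 3 libraries higher than any non-treated library. Against vehicle the log2 difference was 0.30 at 20 µg/mL, 0.43 at 100 µg/mL and 0.47 at 500 µg/mL.

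Spry4 had the lowest level of the Sproutys among the 10 genes. It had 5.31, 6.68 and 5.19 CPM in JGT 500 against 3.76, 4.48 and 4.36 CPM in non-treated libraries. It rose 1.37-fold (log2 0.45 ± 0.126, SE, adjusted p = 0.00922). The call was lost without JGT 500 replicate 2 (log2 0.32, adjusted p = 0.0533) and without non-treated replicate 1 (0.38, 0.0609). Vehicle libraries were spread widely, at 5.14, 5.32 and 3.71 CPM, and JGT 500 was not called against them (log2 0.29 ± 0.124, SE, adjusted p = 0.0819, and 0.15, 0.357 without JGT 500 replicate 2). At 20 and 100 µg/mL the 6 libraries lay between 5.64 and 6.02 CPM, above the vehicle libraries, a log2 difference of 0.32 at 20 µg/mL and of 0.30 at 100 µg/mL. The doses overlapped, and JGT 500 was not called against JGT 20 (log2 −0.03, 95% interval −0.28 to 0.22, adjusted p = 0.898).

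Spry2 and Spred1 differed little between groups. Spry2, on chromosome 14 at 105891947 to 105896819 (− strand), had 33.2, 38.7 and 36.8 CPM in JGT 500 against 34.6, 32.3 and 32.3 CPM in non-treated libraries. It was not called (log2 0.14, 95% interval 0.02 to 0.25, adjusted p = 0.0692), but was without JGT 500 replicate 1 (0.19, 0.0134) and when scaled by library totals alone (0.15, 0.0364). Against vehicle the difference was 0.03 (−0.08 to 0.14, adjusted p = 0.708). It was not called against JGT 100 (−0.10, adjusted p = 0.202), but was without JGT 500 replicate 2 (−0.16, 0.0216). Its highest mean was at 100 µg/mL, 38.9 ± 2.48 CPM, where all 3 libraries lay above those of vehicle, at 35.5 ± 0.241 CPM (SD, n = 3 each). Spred1, a membrane-bound relative of the Sproutys that brings neurofibromin to RAS, lies on chromosome 2 at 117121374 to 117182279 (+ strand). Its group means ran from 50.1 CPM in vehicle to 53.7 CPM in JGT 500, and all neighbours in that order overlapped. It was not called against non-treated (log2 0.04, −0.05 to 0.13, adjusted p = 0.543) or vehicle (0.10, 0.01 to 0.19, adjusted p = 0.0829), but was against vehicle without JGT 500 replicate 2 (0.13, 0.0238) and when scaled by library totals alone (0.12, 0.0474).

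Of the phosphatases, Dusp4 fell at the top dose and Dusp6 did not. Dusp4, a nuclear phosphatase of ERK and other MAP kinases, lies on chromosome 8 at 34807297 to 34819894 (+ strand). It had 15.8, 21.5 and 17.3 CPM in JGT 500, against 22.1, 22.2 and 23.2 CPM in non-treated and 22.3, 23.1 and 23.6 CPM in vehicle libraries. All 3 JGT 500 libraries lay below every control library, and replicate 2 lay closest to them. The fold change was 0.813 over non-treated (log2 −0.30 ± 0.0761, SE, adjusted p = 0.0049) and 0.794 over vehicle (−0.33 ± 0.0759, adjusted p = 0.00207). Without JGT 500 replicate 2 the difference from non-treated grew to −0.45 and that from vehicle to −0.48. In a fit of JGT 500 and non-treated libraries alone the first call was lost (−0.31, adjusted p = 0.0586).

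Dusp4 also fell against JGT 20, whose libraries had 23.6, 23.3 and 24.2 CPM (log2 −0.37 ± 0.075, SE, adjusted p = 0.000896). Against JGT 100, at 21.7, 21.4 and 21.4 CPM, it fell by 0.23 (adjusted p = 0.0336), but JGT 500 replicate 2 lay inside the JGT 100 range and the call was lost without JGT 500 replicate 1 (−0.14, 0.201) or replicate 3 (−0.20, 0.125). It was lost as well without JGT 100 replicate 1 (−0.23, 0.0857), replicate 2 (−0.24, 0.0794) or replicate 3 (−0.24, 0.0667). Without JGT 500 replicate 2 the difference from JGT 100 was larger (−0.38, 9.11e-06).

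Dusp6, a cytoplasmic phosphatase with a preference for ERK, lies on chromosome 10 at 99263231 to 99267489 (+ strand). Its levels were 21.6, 20.7 and 20.8 CPM in JGT 500, against 21.5, 20.7 and 18.2 CPM in non-treated and 21.6, 21.1 and 19.2 CPM in vehicle libraries, so all 3 groups overlapped. It was called in neither comparison, with log2 0.06 over non-treated (−0.07 to 0.20, adjusted p = 0.502) and 0.03 over vehicle (−0.11 to 0.16, adjusted p = 0.793). Its levels were higher at the lower doses, 24.1, 23.6 and 25.0 CPM at 20 µg/mL and 23.3, 21.7 and 24.7 CPM at 100 µg/mL, above every vehicle library. JGT 500 was lower than JGT 20 (log2 −0.21 ± 0.0639, SE, adjusted p = 0.0233), a call lost without JGT 500 replicate 3 (−0.20, 0.0552), JGT 20 replicate 1 (−0.21, 0.0506) or JGT 20 replicate 3 (−0.19, 0.0793). JGT 500 over JGT 100 stood at −0.14 and was not called (−0.28 to −0.01, adjusted p = 0.124).

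All 3 ETS factors fell at 500 µg/mL. Erf, a repressor that ERK phosphorylates and so drives out of the nucleus, lies on chromosome 7 at 25242561 to 25250761 (− strand). It stood at 67.4, 59.0 and 63.2 CPM in non-treated, 63.2, 67.7 and 66.3 CPM in vehicle, 54.5, 51.2 and 50.1 CPM at 20 µg/mL, 54.2, 53.6 and 52.4 CPM at 100 µg/mL and 42.2, 48.1 and 41.9 CPM at 500 µg/mL. The groups formed 3 levels that did not overlap, the controls highest, the lower doses overlapping each other in between, and the top dose lowest. Over non-treated the fold at 500 µg/mL was 0.698 (log2 −0.52 ± 0.0562, SE, adjusted p = 3.81e-07), lower in 3 of 3 libraries. Against vehicle the log2 difference was −0.34 at 20 µg/mL, −0.30 at 100 µg/mL and −0.58 at 500 µg/mL. From control to top dose Erf had the widest range of the 10 genes, with a highest group mean 1.49 times the lowest.

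Etv4, an activator of the PEA3 group that fibroblast growth factors induce, lies on chromosome 11 at 101769742 to 101785371 (− strand). It had 11.9, 15.5 and 11.9 CPM in JGT 500, against 18.6, 17.4 and 17.2 CPM in non-treated and 17.1, 18.2 and 16.6 CPM in vehicle libraries. Every JGT 500 library was below every control library. The fold was 0.742 over non-treated (log2 −0.43 ± 0.0923, SE, adjusted p = 0.00133) and 0.76 over vehicle (−0.40 ± 0.0925, adjusted p = 0.00274), and without replicate 2 the log2 values were −0.58 and −0.55. Group means went down with dose, at 16.1 ± 1.64, 15.6 ± 0.895 and 13.1 ± 2.07 CPM (SD, n = 3 each) for 20, 100 and 500 µg/mL, but neighbouring doses overlapped. JGT 500 was lower than JGT 20 (log2 −0.29, adjusted p = 0.0278), a call lost without JGT 500 replicate 1 (−0.23, 0.134) or 3 (−0.23, 0.117) and without JGT 20 replicate 2 (−0.22, 0.132) or 3 (−0.29, 0.0719). Without JGT 500 replicate 2 it was larger (−0.44, 9.07e-05). It was not called against JGT 100 (−0.24, −0.44 to −0.05, adjusted p = 0.0696), but was without JGT 500 replicate 2 (−0.40, 0.000334) and with the replicate number as a block (−0.25, 0.0421).

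Etv5, the second PEA3 activator, lies on chromosome 16 at 22381309 to 22439719 (− strand). It had 18.8, 21.5 and 19.5 CPM in JGT 500, against 23.3, 24.1 and 22.8 CPM in non-treated and 23.2, 24.3 and 23.0 CPM in vehicle libraries. All 3 were below all controls, with a fold of 0.853 over non-treated (log2 −0.23 ± 0.0579, SE, adjusted p = 0.00454) and 0.852 over vehicle (−0.23 ± 0.0578, adjusted p = 0.00408). Its level was highest at 100 µg/mL, with 26.6, 25.5 and 23.9 CPM, and JGT 500 fell against it by 0.34 ± 0.0564 on the log2 scale (adjusted p = 0.00018), with no overlap. JGT 500 was also lower than JGT 20, at 22.02, 22.8 and 23.4 CPM (−0.19, adjusted p = 0.0227), a call lost without JGT 500 replicate 1 (−0.15, 0.115) or 3 (−0.17, 0.0664) and without JGT 20 replicate 2 (−0.19, 0.0563) or 3 (−0.17, 0.0769).

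Errfi1, an inhibitor that binds the kinase domain of the EGF receptor family, lies on chromosome 4 at 150853919 to 150868892 (+ strand) and had its highest levels at the lower doses. It stood at 66.9, 65.1 and 61.9 CPM in non-treated, 62.7, 69.4 and 66.3 CPM in vehicle, 76.5, 73.4 and 79.2 CPM at 20 µg/mL, 80.1, 77.5 and 81.4 CPM at 100 µg/mL and 60.3, 62.2 and 52.9 CPM at 500 µg/mL. All 6 libraries at the lower doses lay above all 9 others. Against vehicle the log2 difference was 0.21 at 20 µg/mL, 0.27 at 100 µg/mL and −0.18 at 500 µg/mL, and JGT 500 over JGT 100 came to −0.45 ± 0.0538 (SE). The test against non-treated missed the threshold (log2 −0.14, 95% interval −0.26 to −0.03, adjusted p = 0.0507). It passed without JGT 500 replicate 1 (−0.17, 0.0475), JGT 500 replicate 2 (−0.20, 0.00379) or non-treated replicate 3 (−0.18, 0.0365). It also passed with DESeq2's type of size factors in edgeR (−0.15, 0.0428) and with no filter on low counts (−0.15, 0.0331). These were 5 of the 13 alternatives run. Over all 13 the log2 ran from −0.20 to −0.08 and the adjusted p from 0.00379 to 0.269.

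**Figure D2:**
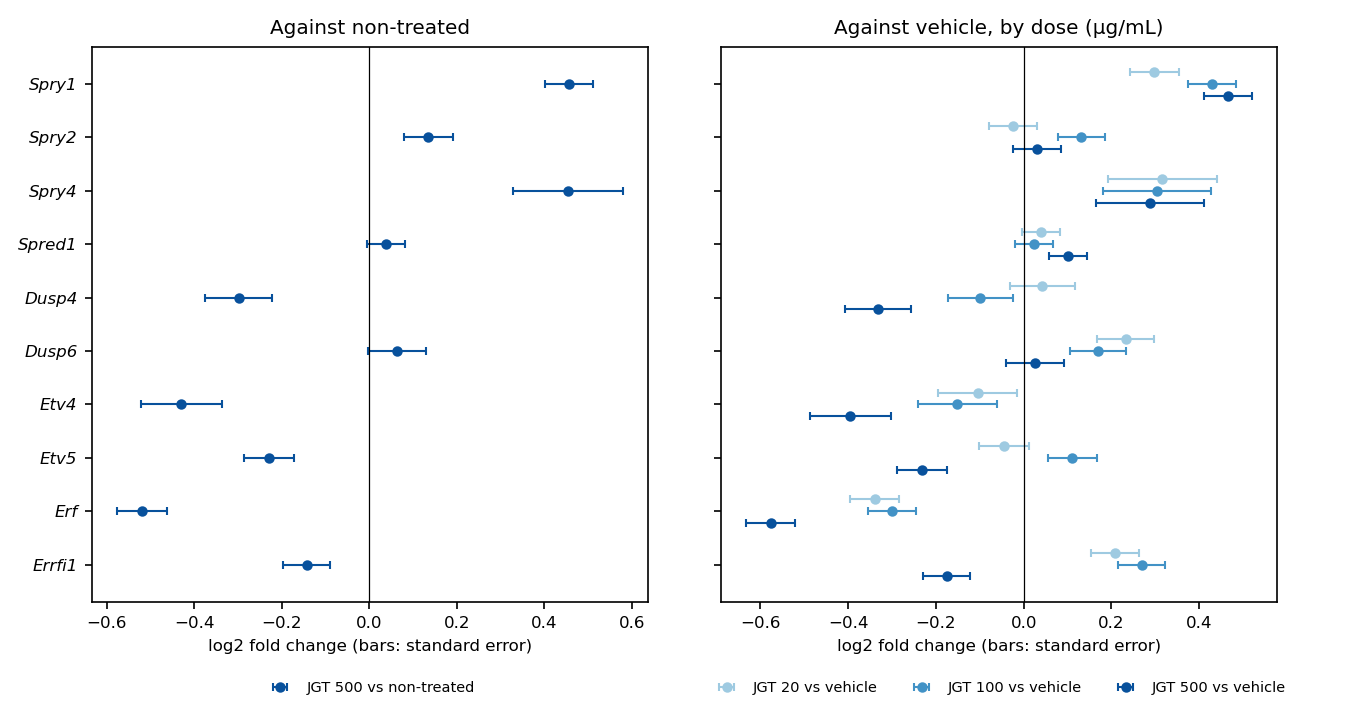
Log2 fold change of the 10 genes for JGT 500 µg/mL over non-treated (left) and for JGT at 20, 100 and 500 µg/mL over vehicle (right), with standard errors from the edgeR fit. Spry1 lay at 0.30, 0.43 and 0.47 over vehicle for the 3 doses, Erf at −0.34, −0.30 and −0.58, and Errfi1 at 0.21, 0.27 and −0.18.

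Against vehicle at 500 µg/mL, 3 of the 7 genes with a test were called, Dusp4, Etv4 and Etv5, all lower, where 33.3% of all tested genes were called, 16.5% higher and 16.8% lower. These comparisons use the vehicle libraries by which Spry1, Erf and Errfi1 were chosen, and they share JGT libraries with those against non-treated. Against JGT 20, 4 of 7 were called, all lower, where 23.3% of tested genes were called and 12.2% were lower. Against JGT 100, 2 of 7 were called, both lower, where 19.7% were called and 10.7% were lower. For vehicle against non-treated, edgeR called 0 of 7, DESeq2 called 0, and 0 had an unadjusted p below 0.05, where 1.31% of tested genes were called by edgeR. The smallest of these 7 unadjusted p was 0.0747, for Spry2 (log2 0.10, −0.01 to 0.22, adjusted p = 0.359).

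At the lower doses the libraries of 6 of the 10 genes did not overlap with vehicle at 20 µg/mL, 4 higher and 2 lower, where 20.9% of all tested genes did not overlap, 10.2% higher and 10.8% lower. At 100 µg/mL these were 8, 5 higher and 3 lower, where 26.3% did not overlap, 13.0% higher and 13.3% lower. The choice of genes used these comparisons, so the counts are only a description. At 20 µg/mL the 4 were Spry1, Spry4, Dusp6 and Errfi1, and the pair that was lower was Erf and, by a log2 of only 0.03, Spry2. At 100 µg/mL Spry2 joined the higher genes, and Dusp4 and Etv4 joined Erf among the lower.

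**Figure D3:**
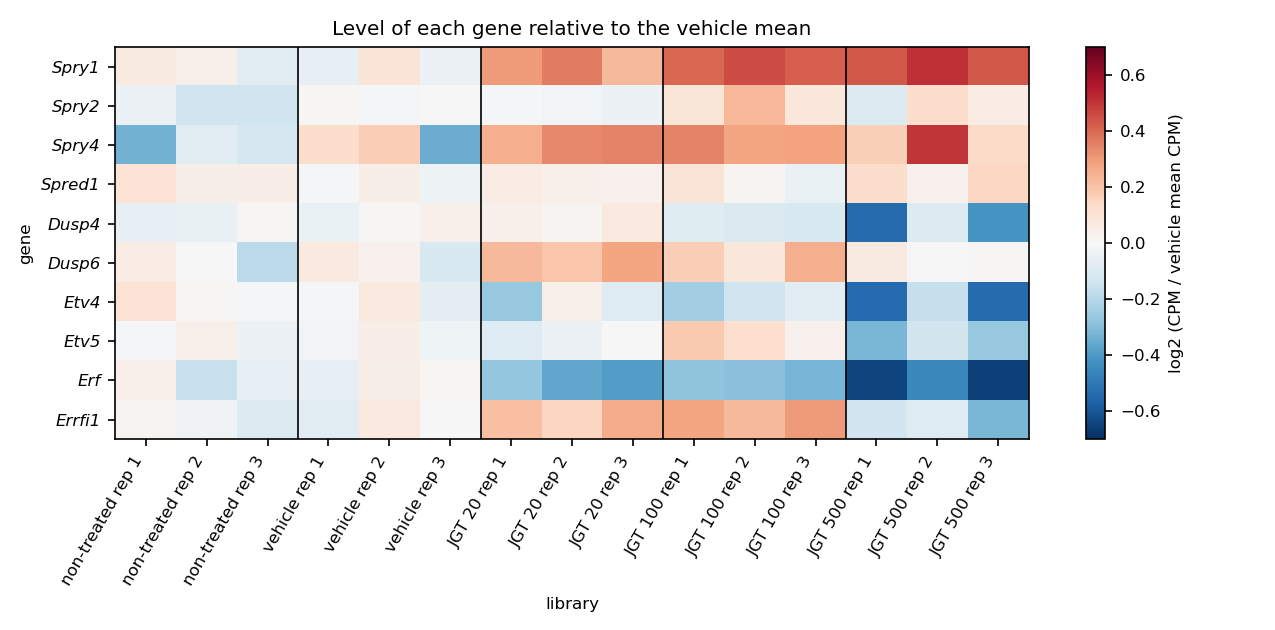
Log2 of the CPM of each gene in each library over the mean of the 3 vehicle libraries, red for higher and blue for lower. Spry1 is red in all 9 JGT libraries and Erf blue in all 9, while Errfi1 is red in the 6 libraries of the lower doses. JGT 500 replicate 2 is paler than replicates 1 and 3 for Dusp4, Etv4, Etv5 and Erf, and darker for Spry1 and Spry4.

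Per kilobase of annotated exon, which allows levels to be compared between genes, the 10 genes spanned a wide range. In JGT 500, Spry2 was highest at 17.4 CPM per kb, followed by Errfi1 at 16.3, Erf at 12.2, Spry1 at 9.53 and Spred1 at 7.92 CPM per kb. In vehicle, Errfi1 was highest at 18.5 CPM per kb, followed by Erf at 18.2, Spry2 at 17.0, Dusp4 at 8.40 and Spred1 at 7.39, with Spry1 next at 6.91 CPM per kb. Spry4 was lowest in both groups, at 1.20 CPM per kb in JGT 500 and 0.993 CPM per kb in vehicle. Lengths are the union of GENCODE M21 exons, and the transcript that C2C12 cells use was not determined. Summed over the 10 genes, CPM came to 298 ± 14.4 in JGT 500 and 327 ± 9.23 in vehicle (SD, n = 3 each).

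Genes most like each member were taken by Pearson correlation of log2 CPM over the 15 libraries, among 9941 named genes with a mean of at least 5 CPM. The libraries share groups and depth, so this is a description. For Errfi1 the nearest was Egr1, an early-response transcription factor gene that ERK induces (r = 0.913), followed by Rbm10 and Fndc5. Egr1 averaged 127 CPM in non-treated, 157 CPM in vehicle, 179 CPM at 20 µg/mL, 178 CPM at 100 µg/mL and 122 CPM at 500 µg/mL. For Erf, Ano6, Pdlim7 and Abhd2 were nearest, each at r = 0.963, and for Spry1 Fxyd6 (0.936), Mxd1 (0.931) and Rhobtb2 (0.927). Dusp4 was most like Eif5a2 (0.954), Sec13 and Lrrc59. Etv4 was most like Pdik1l (0.951), Cttnbp2nl and Pcna, the sliding clamp of DNA replication (0.932). For Etv5 the nearest was Adamtsl1 (0.893), for Spry4 Ttll12 (0.916), for Dusp6 Ctif (0.883) and for Spred1 Etfdh (0.882).

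**Figure D4:**
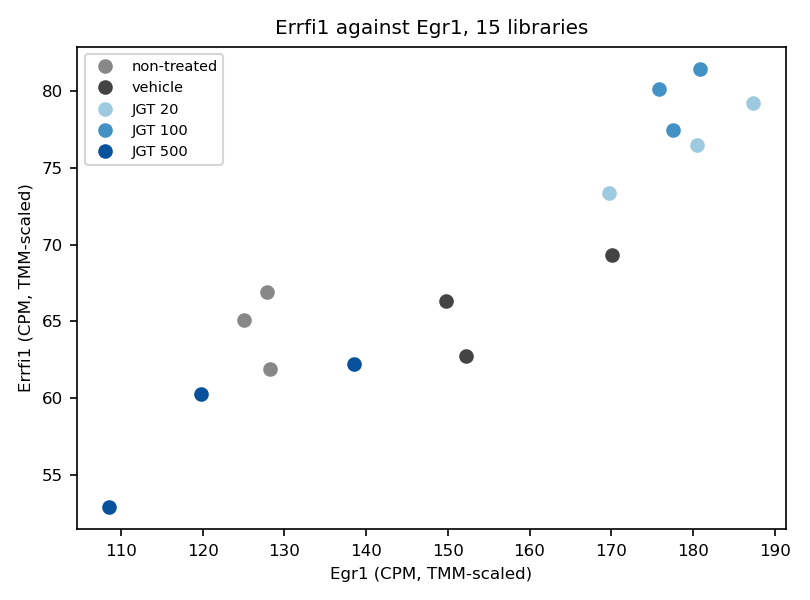
Errfi1 against Egr1 in the 15 libraries, both in CPM scaled by TMM factors, coloured by group. The 6 libraries of 20 and 100 µg/mL lie at the upper right, with Errfi1 at 73.4 CPM or more, and the JGT 500 libraries at the lower left with Errfi1 at 62.2 CPM or less.

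Other genes of the pathway, taken from 6 lists, moved both ways at 500 µg/mL against vehicle, a comparison in which 33.3% of all tested genes were called, 16.5% higher and 16.8% lower. Among growth factor ligands 22 of 25 were tested, of which 3 rose, 6 fell and 13 were not called, with a median log2 of −0.08 beside 0.01 for all tested genes. Pdgfb, which signals through the PDGF receptors, fell most clearly, to 17.0 ± 1.31 CPM in JGT 500 against 39.3 ± 0.663 CPM in vehicle (SD, n = 3 each; log2 −1.22, adjusted p = 7.97e-12). Hbegf, a ligand of the EGF receptor, fell to 25.9 ± 3.18 CPM in JGT 500 against 43.4 ± 1.70 CPM in vehicle (log2 −0.75, adjusted p = 1.7e-06). Hgf, the ligand of the Met receptor, rose to 25.4 ± 3.45 CPM in JGT 500 against 13.1 ± 0.379 CPM in vehicle (log2 0.96, adjusted p = 3.64e-09). Pdgfc (log2 −0.35), Nrg1 (−0.35), Fgf21 (−0.48) and the low Epgn (−1.14) fell as well, and the low Fgf7 (0.42) and Fgf10 (0.89) rose. For Pdgfb and Hgf the group means were ordered by dose, at 32.1, 27.5 and 17.0 CPM for Pdgfb and at 14.2, 16.9 and 25.4 CPM for Hgf from 20 to 500 µg/mL.

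Of 19 growth factor receptors 15 were tested, of which 4 rose and 5 fell (median −0.0014). Pdgfra rose (log2 0.71, adjusted p = 3.54e-09), as did Erbb3 (0.26), Insr (0.14) and Erbb2 (0.11). Fgfr4, the fibroblast growth factor receptor typical of muscle precursors, fell (−0.56, adjusted p = 4.86e-06), and so did Pdgfrb (−0.23), Egfr (−0.32), Fgfr2 (−0.72) and Met (−0.17). Fgfr1 was not called (0.09, adjusted p = 0.16).

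Changes in the cascade itself were small. Of 29 genes from adaptor to kinase, 5 rose, 6 fell and 18 were not called, where 33.3% of all tested genes were called, with a median log2 of 0.00017, and the changes called lay between −0.28 and 0.25. Map2k1, which encodes the ERK kinase MEK1, rose to 82.7 ± 1.64 CPM in JGT 500 against 69.5 ± 1.64 CPM in vehicle (SD, n = 3 each; log2 0.25, adjusted p = 5.95e-05), as did Rras2 (0.18), Shc1 (0.18) and Rps6ka2 (0.14). Rasa1, a GTPase activator that switches RAS off, fell (−0.28, adjusted p = 0.000256), as did the ERK substrate kinase gene Rps6ka3 (−0.18). The ERK gene Mapk3 was not called (log2 0.02, adjusted p = 0.774).

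Of the other Sprouty, Spred and MAP kinase phosphatase genes 12 of 13 were tested, of which 2 rose, 4 fell and 6 were not called (median −0.11). Spred2, the closest relative of Spred1, fell (log2 −0.27, adjusted p = 0.000251), with Dusp7 (−0.26), Dusp1 (−0.24) and the low Dusp2 (−0.66). Dusp16 (0.19) and Dusp10 (0.14), phosphatases that act mainly on stress kinases, rose. Of 18 other ETS factors 12 were tested, of which 1 rose, 4 fell and 7 were not called (median −0.08), again beside 33.3% of all tested genes. The 4 were Elf4 (−0.25), Elk3 (−0.34), Ets1 (−0.21) and Etv6 (−0.16), and the riser was Elk4 (0.15).

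Of 21 genes that ERK is known to induce, 5 rose, 10 fell and 6 were not called (median −0.14), beside the same 33.3%. Against non-treated 4 of the 21 rose and 8 fell (median −0.05), where 31.8% of all tested genes were called. Vehicle itself differed from non-treated in 3 of them, with Egr1 higher (log2 0.31, adjusted p = 0.0393) and Spp1 (−0.24, 0.00424) and Ccnd1 (−0.33, 0.0061) lower. Ccnd1, the cyclin of G1 phase, fell to 13.5 ± 0.606 CPM in JGT 500 against 26.7 ± 1.00 CPM in vehicle (SD, n = 3 each; log2 −0.99, adjusted p = 9.79e-11). Klf10 (−0.48), Emp1 (−0.50) and Egr1 (−0.36, adjusted p = 0.000721) fell too, but Egr1 was not called against non-treated (−0.05, adjusted p = 0.595). The 5 that rose were Spp1, the matrix protein osteopontin (0.42, adjusted p = 4.21e-08), Maff (0.46), Phlda1 (0.43), Hmga1 (0.24) and Epha2 (0.13). At 100 µg/mL, where 4.31% of all tested genes were called against vehicle, these lists had 4 genes higher and 4 lower in all. The higher were Hgf, Vegfa, Pdgfra and Spp1, and the lower Pdgfb, Fgfr3, Rasa2 and Elf4. At 20 µg/mL, where 0.325% were called, Spp1 was higher and Pdgfb lower. Spp1 averaged 1279 CPM in non-treated, 1080 CPM in vehicle, 1256 CPM at 20 µg/mL, 1222 CPM at 100 µg/mL and 1446 CPM at 500 µg/mL, so the lower doses lay above vehicle but not above the mean of non-treated libraries. Of the genes named for 500 µg/mL against vehicle, 12 lost their call when at least 1 library was left out. The highest adjusted p over all alternatives was 0.187 for Rps6ka2, 0.174 for Erbb2, 0.132 for Fgf10, 0.12 for Elk4 and for Epha2, 0.103 for Etv6, 0.0903 for Fgf7, 0.0871 for Dusp2, 0.0855 for Epgn, 0.0794 for Dusp10, 0.0646 for Insr and 0.0637 for Hmga1.

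**Figure D5:**
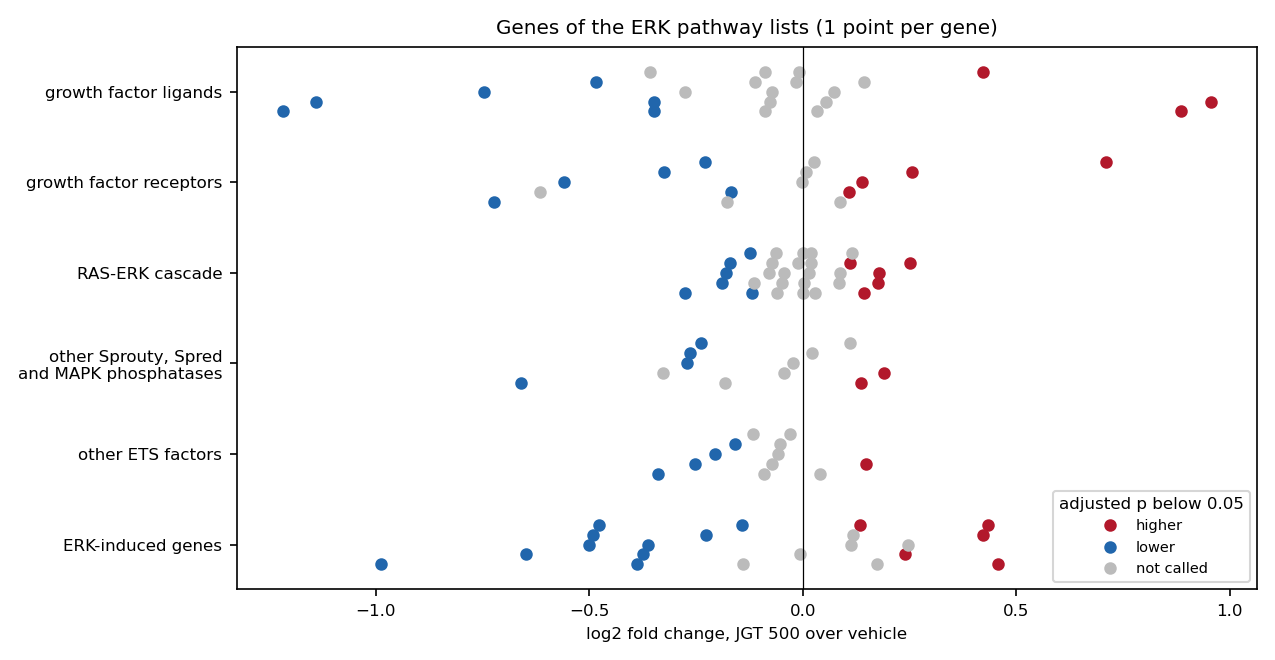
Log2 fold change of JGT 500 µg/mL over vehicle for the tested genes of 6 pathway lists, 1 point per gene, red where called higher, blue where called lower and grey where not called. Called cascade genes lie between −0.28 and 0.25, while ligands reach −1.22 and 0.96.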

How the data were processed

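The libraries were directional, prepared from mRNA with an MGI kit and sequenced as read pairs, per the labels' protocols. RSEM 1.3.3, STAR 2.7.3a, Trim Galore 0.6.5 and FastQC 0.11.9 are named, with build GRCm38, in the submitters' processing notes. No source used here names the annotation or strand option. The authors deposited expected counts per gene symbol, not normalized. Of these values 9.34% were not whole (tolerance 0.005), and all were rounded.

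edgeR 4.0.16 (R 4.3.3) was used with filterByExpr, TMM factors (0.988 to 1.02) and 1 robust quasi-likelihood fit of all 15 libraries with a mean per group, with 10 residual degrees of freedom. Tests were two-sided, with Benjamini-Hochberg adjustment over 14461 genes. The fit was also run on simulated data in which each gene had the same dispersion in every group. That run cannot show how the test behaves where JGT 500 libraries spread more than others. Log2 fold changes are the named first group over the second. Nothing in the labels shows that replicates were separate cultures, so p-values reflect only the variation among these samples, possibly technical.

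The 10 genes, the pathway lists and the comparisons were chosen with earlier results of these data known. Text names all 10 genes, the 4 genes of each list with the smallest p among those called at 500 µg/mL against vehicle, groups of 5 or fewer called genes, and for each of the 10 up to 3 most similar genes. Fgfr1, Mapk3, Nrg1, Fgf21 and Epgn were chosen after their values were seen, and a few genes that the rule selects are not reported here. Same-numbered libraries of JGT 500 and JGT 100 deviated together from their group means (r = 0.169, 0.264 and 0.274), and those of no other groups compared all did. Libraries with different numbers also correlated, at 0.604 for JGT 20 replicate 1 with JGT 500 replicate 2 and −0.541 with JGT 500 replicate 3. These values therefore do not show that the numbers mark pairs. Alternatives were other scalings, no filter, DESeq2 1.42.0, fits of 2 groups, non-robust dispersions, a replicate block, and leaving out each library. Promoters came from RefSeq.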

Additional observations from a re-analysis of the deposited data

How the results depend on the processing

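Over 494 tested values of the 10 genes under the alternatives run, 23 lost a call, 12 gained one and 0 reversed. Over 715 values of list genes called at 500 µg/mL against vehicle, 79 lost the call and 0 reversed. Reversed means a change of sign where either fit called the gene. Values called in neither fit did change sign, as for Spry2 in JGT 500 against vehicle (log2 −0.03 to 0.09). Spry1, Erf, Etv4 and Etv5 were called against non-treated in all 13 alternatives each, and Dusp4, Etv4 and Etv5 against vehicle in all 13. Scaled by library totals alone, 1 of 7 genes was called for JGT 500 against JGT 100. In fits of only the groups compared, 1 was called against JGT 100 and 2 against JGT 20, and 3 other ETS factors and 6 cascade genes against vehicle. Leaving out 1 library at a time gave 5 to 8 of 10 genes against non-treated, 3 to 4 of 7 against vehicle, 1 to 4 against JGT 100, 1 to 4 against JGT 20, and 0 for vehicle against non-treated. The pathway lists then had 4 to 6 other Sprouty, Spred and phosphatase genes, 3 to 7 other ETS factors, 7 to 13 cascade genes, 8 to 11 receptors, 6 to 9 ligands and 12 to 14 ERK-induced genes called. The share of all tested genes called was not recorded for the alternatives, so counts under them cannot be set against it. The cause of the changes in these counts was not tested. Of 30 same-numbered pairs across groups, 10 had deviations from the group means that correlated above 0.1, with a median of −0.03, and JGT 500 with JGT 100 was the one pair of groups in which all 3 did. With the replicate block, 6, 3, 3, 4 and 0 genes were called against non-treated, vehicle, JGT 100 and JGT 20 and for vehicle against non-treated. The block changed no call of the 10 genes other than Etv4 against JGT 100 (log2 −0.25, adjusted p = 0.0421). Mean chi-square per gene between libraries was 8.5 to 35.6 within JGT 500 and 2.02 to 4.14 within vehicle, so a spread fitted over all groups may be too small for JGT 500.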
